A study of Homo sapiens with 2 samples.

Results

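The data were the log2 ratios of 1 two-colour array that set CD26-depleted ACC-MESO1 cells against control ACC-MESO1 cells. ACC-MESO1 is an established human mesothelioma cell line. Every gene with a name and a value on this array was described, with the probes of a gene averaged. This gave 10347 genes, of 10750 with a value on either of the 2 arrays of the series. The other array set MSTO-211H mesothelioma cells carrying CD26 in the vector pLNCX2 against their control, and it had 9359 such genes. Both lines were grown in RPMI medium with fetal calf serum. The sample labels give an shRNA against CD26 as the depleting agent, and the design text gives an siRNA. What the control cells received is not stated in the labels. It is also not stated whether the depleted cells were a pool or 1 clone.

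Control RNA was in the Cy5 channel and RNA of the depleted cells in the Cy3 channel. Dyes were not swapped and no array was repeated, so the dye and the depletion cannot be told apart for any single gene. The sample label numbers the RNAs and gives the ratio as depleted over control. The number 3 stands for the depleted cells on this array and for a control on the other array. All values below are log2 ratios of depleted over control cells on an array whose median is 0, and no p-value, SD or interval over samples can be given. Intensities were not used here, so the level of a gene in either channel and the signal over background are unknown. A ratio of bulk RNA also cannot tell a change in every cell from a change in the share of cells that carry a transcript.

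CD26 is a cell surface peptidase, encoded by DPP4, that removes a dipeptide ending in proline or alanine from the amino end of small proteins. Its known substrates include chemokines, incretin hormones and neuropeptides, and it also binds adenosine deaminase and matrix proteins. A shed form circulates in blood. Malignant mesothelioma is a tumour of the lining of the pleura and peritoneum, and CD26 on its surface has been studied as an antibody target.

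DPP4 was the lowest named gene, with a log2 ratio of -3.92, which is 15.1-fold lower in the depleted cells. It rested on a single probe, and on the other array, where CD26 was added, that gene had a log2 ratio of 5.51. The targeted gene therefore went in the direction of the label. The next lowest gene was INSIG1, a brake on sterol synthesis, at -2.40.

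In the depleted cells, 342 of 10347 genes reached 2-fold on the high side, a share of 3.31%, and 161 reached it on the low side, a share of 1.56%. Together these made 4.86% of the genes, and 9844 genes lay within 2-fold. A fold of at least 4 was reached by 35 genes on the high side and by 5 on the low side. The genes on the high side made 68.0% of those past 2-fold. That share was 94.2%, with 751 genes higher and 46 lower, when the array was centred on the cytosolic ribosomal protein genes, a centring that adds 0.31 to every value and to the median of every list. The bulk of the genes was balanced, with quartiles at -0.23 and 0.27 and 51.3% of genes above 0.

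**Figure D1:**
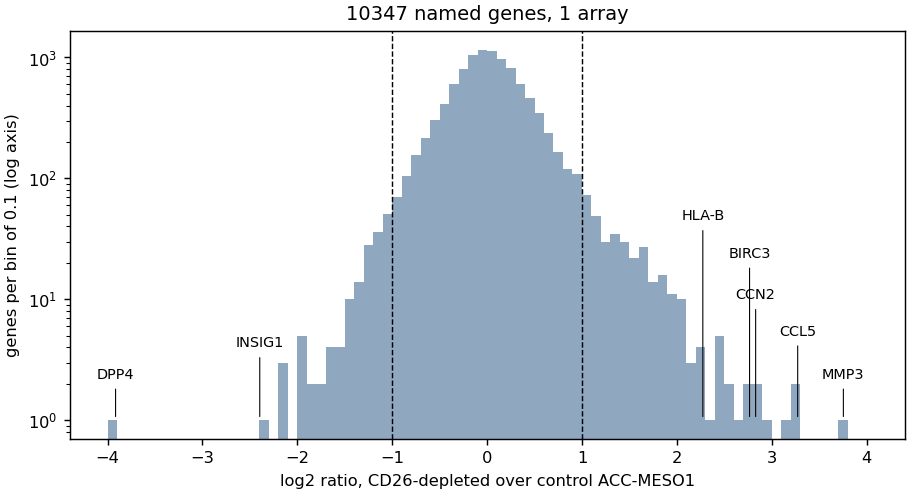
Histogram of the log2 ratio of the 10347 named genes, depleted over control, in bins of 0.1, with the number of genes on a log axis. Dashed lines mark 2-fold in either direction, and the high side carries the longer shoulder (342 genes against 161), while DPP4 at -3.92 stands alone on the low side.

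With 1 array, the spread between probes of the same gene was the nearest thing to an error. Among 566 genes with several probes, the pooled SD between probes was 0.42, against an SD of 0.48 over all genes. The other 9781 genes rested on 1 probe. Of the 11 genes with several probes and a mean past 2-fold, 5 had every probe past it. These were the survival gene BCL2 (probes at 1.43 and 2.17), the interferon-induced GTPase gene GBP1 (1.67 and 2.28), the coagulation initiator gene F3 (1.35 and 1.66), the membrane protein gene MYADM (1.03 and 1.33) and the chorionic gonadotropin gene CGB (1.01 and 1.39). The probes of CXCL8, at 0.09 and 3.11, lay far apart. Olfactory and taste receptors gave a second yardstick, as genes of nasal and taste cells with many close paralogs. Among 146 of them, 7 (4.79%) were at least 2-fold higher and 3 (2.05%) were lower by as much, beside the 3.31% and 1.56% of all genes, from OR1E2 at 3.24 to OR2T12 at -1.44.

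Genes were grouped into 140 lists by family and pathway, and 4997 genes were in at least 1 list. The group of secreted protein families held the largest share of genes at least 2-fold higher among the large groups, with 57 of 580 (9.83%), against 8 (1.38%) on the low side. It was grouped by family, so it also holds genes of proteins that are not secreted. Among its higher members these include C5AR1, CD59, PLAUR and SDC4 of the cell surface and the sulfotransferase HS3ST3A1. Signalling genes (42 of 585, 7.18%) and cytoskeletal genes (14 of 199, 7.04%) also lay above the share of 3.31% over all genes. Cell surface genes held 51 of 1125 (4.53%), and metabolic genes held 20 higher and 21 lower of 754. Transcription factors (10 higher of 681) and genes of RNA, protein and vesicle handling (10 higher of 799) lay below the overall share. Among genes in no list, 138 of 5350 (2.58%) were at least 2-fold higher.

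**Figure D2:**
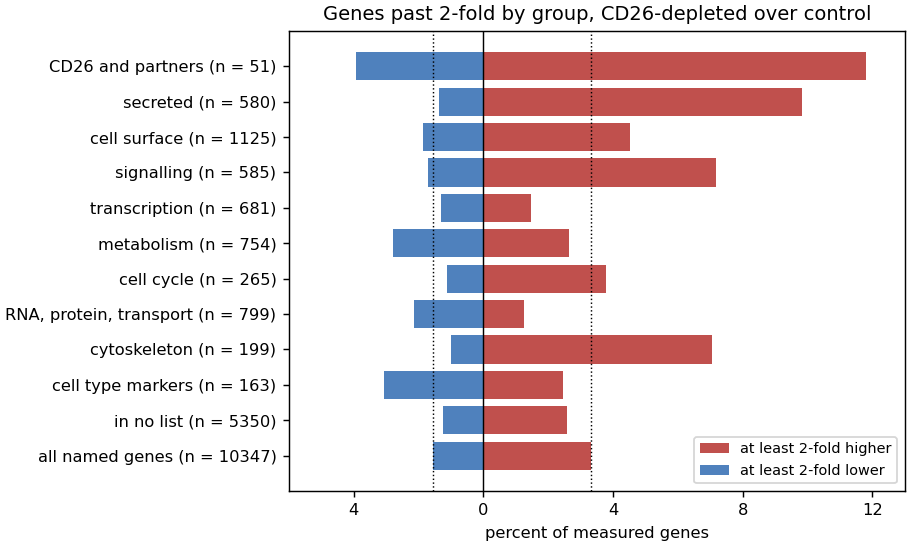
Share of measured genes at least 2-fold higher (red, to the right) or lower (blue, to the left) in depleted cells, in percent, for groups of gene lists, with dotted lines at the shares over all named genes (3.31% and 1.56%). The bars of CD26 partners and substrates, secreted, signalling and cytoskeletal genes reach well past the dotted line on the high side, and those of transcription and RNA, protein and transport genes stop short of it.

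Promoter sequences are shown for genes of the 4 groups on which the results turn: NF-kB and chemokine genes, MHC class I, interferon-stimulated genes and sterol synthesis, with CCN2 for the YAP and TEAD targets. They are the 250 bases before the start of transcription from the RefSeq annotation of GRCh38.p14, 5′ to 3′ on the strand of the gene. Capitals mark matches to a motif searched on both strands. NF-kB is a dimeric factor held inactive in the cytoplasm until a receptor signal frees it, and its binding site is the kappaB motif. CXCL1, a neutrophil chemokine gene at chr4:73869143-73869392 on the plus strand, BIRC3, an inhibitor of apoptosis at chr11:102317234-102317483 on the plus strand, and HLA-B, a class I antigen-presenting chain at chr6:31357180-31357429 on the minus strand, carry kappaB matches.
CXCL1: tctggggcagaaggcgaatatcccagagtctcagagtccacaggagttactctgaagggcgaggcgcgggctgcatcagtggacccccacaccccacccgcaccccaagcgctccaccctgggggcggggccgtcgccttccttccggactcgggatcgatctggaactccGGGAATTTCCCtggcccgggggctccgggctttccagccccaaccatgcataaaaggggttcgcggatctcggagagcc
BIRC3: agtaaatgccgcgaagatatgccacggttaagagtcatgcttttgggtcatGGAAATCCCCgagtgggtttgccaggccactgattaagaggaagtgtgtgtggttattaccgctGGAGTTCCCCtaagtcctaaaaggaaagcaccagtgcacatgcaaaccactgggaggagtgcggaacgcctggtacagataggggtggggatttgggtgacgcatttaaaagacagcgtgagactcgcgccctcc
HLA-B: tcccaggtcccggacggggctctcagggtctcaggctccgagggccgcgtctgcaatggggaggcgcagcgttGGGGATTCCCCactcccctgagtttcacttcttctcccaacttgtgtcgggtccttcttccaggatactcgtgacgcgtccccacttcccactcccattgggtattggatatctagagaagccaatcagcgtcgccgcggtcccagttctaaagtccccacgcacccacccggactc
The kappaB motif occurred in 10.8% of 27305 promoter windows, each of 300 bases, of which 250 lie before the start. It was found in 9 of 34 NF-kB core genes with a promoter in the table (26.5%), in 7 of 23 chemokine genes (30.4%) and in 6 of 21 genes of the MHC class I pathway (28.6%). Among the members past 2-fold, the matches were in BIRC3, CARD9 and TNFAIP3 (3 of 4), CXCL1 and CXCL2 (2 of 5), and HLA-B, HLA-C and TAP1 (3 of 7). The capitals of CXCL1 begin 79 bases before its start, and those of HLA-B 177 bases before.

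Interferon-stimulated genes are switched on through the interferon-stimulated response element, here GAAA, any 2 bases and GAAA. ISG15, a ubiquitin-like modifier at chr1:1013247-1013496 on the plus strand, and IFIT3, an antiviral RNA-binding adaptor at chr10:89327747-89327996 on the plus strand, carry 2 matches each, overlapping in ISG15 and on the opposite strand in IFIT3.
ISG15: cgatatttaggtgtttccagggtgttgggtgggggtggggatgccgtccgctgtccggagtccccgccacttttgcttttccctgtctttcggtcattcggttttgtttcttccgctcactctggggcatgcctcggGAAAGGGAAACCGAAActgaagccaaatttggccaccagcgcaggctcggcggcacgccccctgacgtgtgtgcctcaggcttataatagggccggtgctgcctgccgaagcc
IFIT3: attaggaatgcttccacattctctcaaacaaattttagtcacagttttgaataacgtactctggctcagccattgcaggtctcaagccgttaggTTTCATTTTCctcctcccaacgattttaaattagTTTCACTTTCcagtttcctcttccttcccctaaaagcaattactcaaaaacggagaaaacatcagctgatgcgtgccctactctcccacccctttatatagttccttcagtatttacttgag
The element occurred in 3.65% of all promoter windows and in 25 of 38 interferon-stimulated genes (65.8%). These genes were listed for their known response to interferon, so this share describes the list and is not a result of the array. It was found in 7 of the 8 members past 2-fold, namely EPSTI1, GBP1, GBP3, IFI27, IFI6, IFIT3 and ISG15. In the MHC class I pathway it was found in 8 of 21 genes (38.1%). Of the 7 members past 2-fold with a promoter in the table, 2 (28.6%) carried it, HLA-F and TAP1.

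Genes of sterol synthesis are driven by SREBP factors, which bind a sterol element together with NF-Y at an inverted CCAAT box, written ATTGG. INSIG1 at chr7:155297628-155297877 on the plus strand and HMGCS1, which makes HMG-CoA, at chr5:43313413-43313662 on the minus strand are shown with the inverted CCAAT boxes in capitals.
INSIG1: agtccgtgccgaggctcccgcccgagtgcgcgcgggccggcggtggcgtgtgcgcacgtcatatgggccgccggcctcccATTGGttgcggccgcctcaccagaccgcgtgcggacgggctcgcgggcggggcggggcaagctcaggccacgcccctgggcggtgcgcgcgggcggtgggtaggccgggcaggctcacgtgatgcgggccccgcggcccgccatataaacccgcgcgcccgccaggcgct
HMGCS1: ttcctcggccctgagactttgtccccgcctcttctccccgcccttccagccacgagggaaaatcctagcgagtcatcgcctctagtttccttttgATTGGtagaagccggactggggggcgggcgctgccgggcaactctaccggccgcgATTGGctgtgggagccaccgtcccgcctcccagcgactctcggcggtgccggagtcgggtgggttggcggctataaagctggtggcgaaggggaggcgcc
An inverted CCAAT box occurred in 35.7% of all windows and in 17 of 25 sterol genes (68.0%), among them HMGCS1, INSIG1, LSS and MSMO1 of the 5 genes past 2-fold. A strict sterol element (TCAC, any base, CCAC) occurred in 1.15% of windows and in 1 of the 25, which was none of those past 2-fold.

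The matricellular gene CCN2, at chr6:131951373-131951622 on the minus strand, is known as a target of YAP, a co-activator that binds DNA through TEAD factors at the motif GGAATG.
CCN2: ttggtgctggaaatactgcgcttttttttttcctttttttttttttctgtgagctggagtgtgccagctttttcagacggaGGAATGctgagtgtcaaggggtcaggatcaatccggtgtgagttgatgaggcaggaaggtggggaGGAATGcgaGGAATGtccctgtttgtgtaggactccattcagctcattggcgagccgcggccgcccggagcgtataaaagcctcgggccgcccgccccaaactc
Its promoter held 3 such matches, which begin 169, 104 and 95 bases before the start. The motif occurred in 14.0% of windows and in 5 of 24 genes of the YAP and TEAD list. The AP-1 site TGANTCA was in 7.76% of windows and in 1 of 8 matrix metalloproteinase and TIMP genes (MMP10). The serum response element CArG was in 1.29% of windows and in 5 of 56 actin and myosin genes (8.93%), none of them among the 4 past 2-fold with a promoter in the table. All matches describe letters in a window and no binding was measured.

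Among DPP4 and other peptidases, 2 of 21 (9.52%) reached 2-fold on each side, against 3.31% higher and 1.56% lower over all genes. MME, which encodes neprilysin, a surface peptidase that degrades small peptides, was at 1.44. ANPEP, the surface aminopeptidase CD13, was at 1.09. The carboxypeptidase gene CPM was at -1.02, and the trimming peptidase of antigen presentation, ERAP1, was at 0.94. Other proline-cutting relatives of CD26 lay within 2-fold, with DPP7 at 0.75, FAP at 0.71, DPP9 at 0.14, DPP8 at 0.04 and PREP at -0.03. DPP10, a relative that is an inactive potassium channel partner, was at 0.64. The list median was 0.11.

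Of 10 genes of proteins that CD26 binds, 1 was past 2-fold, plasminogen, PLG, at 1.31. ADA, the adenosine deaminase that docks on CD26, was at 0.20 and the caveolin gene CAV1 at 0.23. Fibronectin, FN1, a matrix ligand of CD26, was the lowest at -0.80, with its probes at -0.85 and -0.75. Among the genes of CD26 substrates, 3 of 20 were at least 2-fold higher, and all 3 were chemokines: CCL5, CXCL9 and CXCL2. The neuropeptide gene VIP (0.95) came next, and the incretin gene GIP (-0.46) and CCL22 (-0.60) were the lowest. The substrates' list overlaps the chemokine list, so the lists do not count as separate evidence.

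Chemokines, the secreted attractants of leukocytes, were past 2-fold on the high side in 6 of 33 cases (18.2%) and on the low side in none. CCL5, an attractant of T cells and monocytes, was at 3.27, which is 9.67-fold and the second highest value of all named genes. The neutrophil attractants CXCL1 (2.46), CXCL8 (1.60) and CXCL2 (1.33), the interferon-induced CXCL9 (1.61) and the mucosal CCL28 (1.36) made up the rest. The CXCL8 value is the mean of probes at 0.09 and 3.11, so it rests on 1 of them. The list as a whole stayed near the middle, with a median of 0.09 and 23 of 33 members above 0. CXCL1 and CXCL2 are among the closest paralogs of the family, and a probe of one may take up the other. Chemokine receptors gave no member past 2-fold among 11, with CCR4 highest at 0.85.

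Interleukin and colony-stimulating factor genes held 4 members at least 2-fold higher of 32 (12.5%, against 3.31% over all genes). These were IL21 (2.15) and IL10 (1.66), known mainly from T cells and other leukocytes, IL36RN (1.66), an antagonist of the IL-36 receptor, and IL23A (1.46), a subunit of IL-23. Their median was 0.01, and the lowest member was the cardiotrophin gene CTF1 at -0.75. Among interferon genes, IFNA17 was at 1.48, while IFNB1 was at -0.53. The alpha interferon genes are close paralogs, and IFNA5 was at -0.52. TNFSF10, the death ligand TRAIL, was the member of the TNF ligand family past 2-fold, at 1.47. Of their receptors, TNFRSF9, a co-stimulatory receptor also called 4-1BB, was at 1.06 and IL31RA, a receptor chain of IL-31, at 1.37.

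Of 12 FGF ligands, 1 was at least 2-fold higher (8.33%, against 3.31% over all genes). This was FGF1, a fibroblast growth factor without a signal peptide, at 2.81, which is 7.03-fold, while FGF2 was at 0.67 and the other measured FGF ligands lay within 2-fold. Of 19 vascular and hepatocyte growth factors and angiopoietins, 3 (15.8%) were at least 2-fold higher: ANGPTL4 (1.63), an inhibitor of lipoprotein lipase, GAS6 (1.07), the ligand of AXL, and VEGFC (1.05), a lymphatic growth factor. VEGFA was at 0.42. EGF family ligands gave no member past 2-fold among 5. The stress cytokine GDF15 was at 1.77 and the anti-Müllerian hormone gene AMH at 1.08, 2 of 20 (10.0%) in the TGF-beta superfamily, whose ligands had a median of -0.02 (0.28 with ribosomal centring).

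Of 18 Wnt ligands, 2 (11.1%, against 1.56% over all genes) were at least 2-fold lower and none at least 2-fold higher. WNT7B was at -1.71 and WNT10A at -1.40. AXIN2, a feedback inhibitor known as a direct target of Wnt and beta-catenin signalling, was at -1.38, and CTNNB1, the gene of beta-catenin, was at -0.79. The receptor gene FZD1 was at -0.96 and WNT11 at -0.91. On the high side, WNT9A (0.73) and the antagonist gene SFRP2 (0.37) were the highest of their lists. Above 0 were 10 of the 18 ligands and 14 of the 30 receptor and antagonist genes. The medians of the ligand list (0.03) and of the receptor and antagonist list (-0.09, or 0.21 with ribosomal centring) were close to 0.

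The IGF-binding proteins, which hold insulin-like growth factors outside the cell, split: IGFBP4 was at 2.03 and IGFBP7 at -1.01. Among hormone and neuropeptide genes, UCN2, a stress peptide of the corticotropin-releasing family, was at 1.70 and GNRH1, the gonadotropin-releasing hormone gene, at 1.16, with the other 39 of 41 within 2-fold. Serpins, inhibitors of serine proteases, held SERPINI2 at 1.59, SERPINB8 at 1.07 and SERPINB1 at -1.03. Of 33 S100 and antimicrobial genes, S100A3 (1.55), the intelectin gene ITLN1 (1.38) and S100A4 (1.15), a calcium-binding protein of motile cells, were at least 2-fold higher.

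Matrix metalloproteinases, the secreted enzymes that cut matrix proteins, had with their TIMP inhibitors 5 of 18 genes past 2-fold on the high side (27.8%) and none on the low side. MMP3, stromelysin, was at 3.75, which is 13.5-fold and the highest of all named genes. MMP10, a second stromelysin, was at 2.23, the collagenase MMP1 at 1.25 and MMP21 at 1.26. TIMP1, an inhibitor of these enzymes, was also higher, at 1.30. MMP1, MMP3 and MMP10 lie in one cluster of related genes on chromosome 11. Of the 13 members short of 2-fold, the highest were TIMP3 at 0.80, MMP14 at 0.49 and MMP9 at 0.43. The others lay below the third quartile of all genes (0.27), with MMP12 at 0.20, MMP2 at 0.12 and TIMP4 lowest at -0.25. The list median was 0.17, with 13 of 18 above 0.

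In the plasminogen system, which makes plasmin at the cell surface, the activator urokinase and its receptor were on the high side. The other activator, PLAT, was at 0.19, below the third quartile of all genes (0.27). Urokinase, PLAU, was at 1.41, the urokinase receptor PLAUR at 1.69 and plasminogen, PLG, at 1.31. Of the other serine proteases, TMPRSS7 was at 1.51, HTRA1 at 1.08 and hepsin, HPN, at -1.21. F3, tissue factor, the starter of coagulation, was at 1.51. ADAM and ADAMTS proteases held 1 gene at least 2-fold higher of 31 (3.23%, near the share over all genes), ADAMTS20 at 1.81. Cathepsins and cystatins held none of 20.

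Complement genes were at least 2-fold higher in 4 of 21 cases (19.0%), with none at least 2-fold lower. C4A, a component of the classical and lectin pathways with a near-identical copy, C4B, was at 2.42. C3, the central component, was at 1.55, and C5 at 1.00, just short of 2-fold. The receptor of the C5a fragment, C5AR1, was at 1.81, and CD59, the surface inhibitor of the membrane attack complex, at 1.61. The decay factor CD55 was at 0.64, and the list ranged down to CFD, the protease of the alternative pathway, at -0.73.

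Matricellular proteins and matrix glycoproteins diverged, with 5 of 39 past 2-fold on the high side (12.8%) and 3 on the low side (7.69%). Over all genes these shares were 3.31% and 1.56%. CCN2, connective tissue growth factor, was at 2.83, the microfibril protein MFAP5 at 1.96, thrombospondin THBS1 at 1.40, the fibrillin FBN2 at 1.36 and the latent TGF-beta binding protein LTBP2 at 1.17. The calcification inhibitor MGP was at -1.18, the cartilage protein MATN3 at -1.21 and ECM2 at -1.41. The microfibril genes on the high side were joined, short of 2-fold, by FBN1 at 0.94, and the low side by the elastic fibre gene FBLN5 at -0.74.

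Enzymes that cross-link and mature collagen lay together on the high side. Their median was 0.57, 22 of 25 were above 0, and the lowest, PCOLCE2, was at -0.12. Over all genes the median was 0.01 and 51.3% were above 0. TGM2, tissue transglutaminase, was at 2.63, the lysyl oxidase LOX at 1.82, the prolyl hydroxylase P3H2 at 1.20 and TLL2, of the tolloid proteases, at 1.20. The lysyl hydroxylase PLOD2 was just short of 2-fold at 1.00, and LOXL2 was at 0.89. With ribosomal centring, 10 of the 25 were at least 2-fold higher in place of 4. Over all 10347 genes that count rose as well, from 342 to 751. The collagens themselves had a median of -0.02 (0.29 with ribosomal centring), and COL7A1, the anchoring fibril collagen, at 1.14 was the member of 28 past 2-fold. Laminins and nidogens had a median of 0.37 over 11 genes with none past 2-fold, from the laminin chain LAMC1 at 0.80 to the nidogen NID1 at -0.86.

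Proteoglycan genes held HAPLN1, a link protein of hyaluronan, at 2.29, the surface heparan sulfate carrier SDC4 at 1.57 and keratocan, KERA, at 1.04. The hyaluronan receptor CD44 was at 0.76. Of 37 enzymes that make glycosaminoglycans, the heparan sulfotransferase HS3ST3A1 (1.24) and the chondroitin sulfotransferase CHST11 (1.19) were at least 2-fold higher, and CHST3 was at 0.92.

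**Figure D3:**
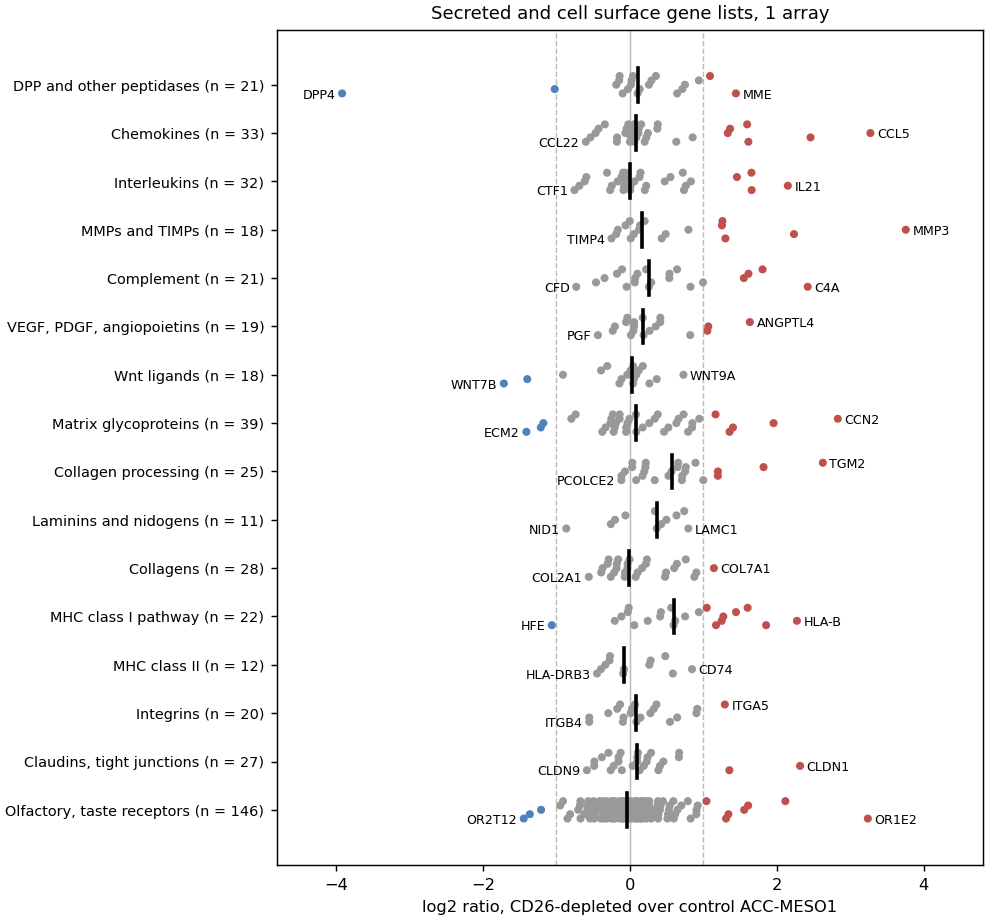
Log2 ratio (depleted over control) of each measured member of 16 secreted and cell surface gene lists, one point a gene, with the list median as a black bar and genes past 2-fold in red (higher) or blue (lower). The medians of the MHC class I pathway (0.61) and of collagen processing (0.57) are displaced to the right, whereas metalloproteinases (0.17), chemokines (0.09) and complement (0.26) have a few far members and a median closer to 0.

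On the cell surface, the MHC class I pathway was the list with the largest share at least 2-fold higher of all 140, with 8 of 22 (36.4%), and its median of 0.61 was the highest. Class I molecules display peptides that the proteasome has cut and the TAP transporter has pumped into the endoplasmic reticulum. The heavy chains HLA-B (2.27), HLA-C (1.85), HLA-F (1.60) and HLA-E (1.44) were followed by TAPBPL (1.27), a peptide editor, the immunoproteasome subunits PSMB8 (1.25) and PSMB9 (1.17), and the transporter subunit TAP1 (1.05). TAP2 was at 0.75 and the proteasome activators PSME1 and PSME2 were at 0.62 and 0.60. HFE, a class I-like regulator of iron uptake, was lower at -1.06, with its 3 probes between -1.32 and -0.74. The endoplasmic reticulum chaperones CALR (-0.11) and CANX (-0.20), which serve many proteins, were at the low end. HLA heavy chains are close paralogs, and their probes may take up one another's transcripts, so the 4 values are not independent.

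The other proteasome genes did not follow. Of 39 subunits, PSMB8 and PSMB9 were the 2 past 2-fold and the list median was -0.06 (0.25 with ribosomal centring), with the constitutive subunit PSMB6 at -0.52. The third inducible subunit, PSMB10, had a mean of 0.41, with its probes spread from -0.67 to 1.52. MHC class II genes, which serve antigen display by immune cells, had a median of -0.08 over 12 genes (0.22 with ribosomal centring) and none past 2-fold, with the invariant chain CD74 highest at 0.85. Among checkpoint and co-stimulatory ligands, NT5E, the surface enzyme CD73 that makes adenosine, was at 1.15 and the tryptophan-degrading IDO1 at 0.71.

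Among adhesion genes, 1 of 20 integrins (5.0%) and 2 of 27 claudins and tight junction genes (7.41%) were at least 2-fold higher. Of 42 cadherins and protocadherins, 1 (2.38%) was at least 2-fold higher and 2 (4.76%) were lower by as much. Over all genes these shares were 3.31% higher and 1.56% lower. ITGA5, the fibronectin receptor chain, was at 1.29, and the integrin genes ITGB5 and ITGA2 were at 0.92 and 0.91, with the other measured integrins within 2-fold. CDH3, P-cadherin, was at 1.35, CDH4 at -1.13 and the giant cadherin FAT3 at -1.05. CLDN1, a sealing claudin of tight junctions, was at 2.32, or 4.98-fold, and CLDN17 at 1.35, while CLDN4 was at 0.41. The desmosomal cadherin DSG1 was at 1.59, and DSG2 was at -0.03. Podocalyxin, PODXL, a mucin-like surface protein, was at 1.66 and the tetraspanin CD9 at 1.03. TM4SF1, a membrane protein of tumour cells, was at 1.95. The gap junction genes GJC1 (0.91) and GJA1 (0.87) were just short of 2-fold.

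Of 32 receptor tyrosine kinases, STYK1, an atypical kinase, was past 2-fold at 1.65; AXL was at 0.70 and the HGF receptor gene MET at -0.67. TLR5, the flagellin receptor, was at 1.33 and TLR4 at 0.84. Ephrins and Eph receptors (16 genes), semaphorins and their receptors (34) and the Notch pathway (25) had none past 2-fold. Among G protein-coupled receptors, ADGRF5 was at 2.02, the orphans GPR12 and GPR19 were at 1.82 and 1.08, and the purine receptor P2RY4 at 1.12. The serotonin receptor HTR2B was at -1.29. Receptors for prostaglandins, lysophospholipids and sphingosine phosphate had a median of -0.27 over 19 genes (0.04 with ribosomal centring), with S1PR4 at -1.13. CD38, a surface enzyme that degrades NAD, was 4.01-fold higher.

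Among channels, 2 of 22 chloride channels and anoctamins (9.09%) were at least 2-fold higher, and 3 of 53 potassium channels (5.66%), with 2 of these (3.77%) lower by as much. BEST4, a calcium-activated chloride channel, was at 2.78, and ANO2, of the same function, was at 1.61. ITPR3, the channel that releases calcium from the endoplasmic reticulum, was at 1.80, the mechanosensitive channel PIEZO1 at 1.04, and the calcium-activated potassium channel KCNN4 at 1.12. The cystine transporter subunits differed: SLC3A1, of the renal system, was at 2.03, and SLC7A11, of the cystine-glutamate exchanger, lay just past 2-fold on the low side. SLC1A4, a carrier of serine and other neutral amino acids, was at -1.13. The lipid transporter ABCA3 was at 1.73 and ABCA7 at -1.16. Of 37 genes of metal transport, 3 (8.11%) were at least 2-fold higher. Metallothioneins, which bind zinc and copper, were on the high side, with MT2A at 1.14, MT1L at 1.12, MT1B at 1.07 and MT1E at 0.50, and the zinc exporter SLC30A1 was at 0.87. Metallothioneins are near-identical in sequence, so their values may come from the same transcripts. Of 45 pump ATPases, 5 (11.1%) were at least 2-fold higher, among them ATP13A3 (1.28) and ATP13A4 (1.10), which lie near each other on chromosome 3.

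Inside the cell, the NF-kB core list had a median of 0.29, 29 of 37 members were above 0, and 6 (16.2%) were at least 2-fold higher with none at least 2-fold lower. The adaptors TRAF1 (2.52) and CARD9 (2.46), the inhibitor of apoptosis BIRC3 (2.77), the feedback inhibitors NFKBIE (1.31) and TNFAIP3 (1.22) and the subunit RELB (1.25) were past 2-fold. Short of it were MALT1 (0.91) and NFKBIA (0.79). Many of these genes are known targets of the pathway as well as parts of it. The other parts of the core were not on the high side throughout, with the subunit RELA at -0.25 and the atypical inhibitor NFKBIZ at -0.64.

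Regulators of cell death held 3 of 35 genes at least 2-fold higher (8.57%), BIRC3 among them, and 1 lower by as much (2.86%). Over all genes these shares were 3.31% and 1.56%. BCL2 was at 1.80 as the mean of its probes, and CFLAR, an inhibitor of caspase-8, was at 1.44. The pro-apoptotic BH3 gene BCL2L11 was at -1.17, and CASP8 (-0.91), CASP9 (-0.88) and APAF1 (-0.84), which start the caspase cascade, were all on the low side short of 2-fold. The list median was 0.04.

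Interferon-stimulated genes had a median of 0.42, 38 of 47 were above 0, and 8 (17.0%) were at least 2-fold higher with none at least 2-fold lower. IFI27 was at 2.04, the GTPases GBP1 and GBP3 were at 1.98 and 1.70, ISG15 was at 1.48, IFI6 at 1.16, the RNA sensor RIGI at 1.13, IFIT3 at 1.07 and EPSTI1 at 1.00. SAMD9L (0.98) and USP18 (0.94), which removes ISG15 from proteins, were just short. With ribosomal centring 14 members were at least 2-fold higher, while the count over all 10347 genes rose from 342 to 751. The list was not uniform, as MX1 (-0.67), LAMP3 (-0.61) and IFIT1 (-0.55) lay on the other side. Of 30 IRF, STAT, JAK and SOCS genes, 1 (3.33%) was past 2-fold on each side, JAK1 at 1.13 and IRF5 at -1.45. The shares over all genes were 3.31% and 1.56%, and the median of this list was 0.08. IRF1 was at 0.69, IRF9 at 0.62 and the receptor gene IFNAR1 at 0.81.

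On the array of transfected MSTO-211H cells, ISG15 (1.64), IFIT3 (1.46) and IFI27 (1.22) were also higher, as were CCL5 (1.85), CXCL1 (1.54) and CARD9 (1.49). HLA-B (0.22), HLA-C (-0.35), HLA-E (-0.05), HLA-F (-0.44), GBP1 (0.22), CCN2 (-0.01), LOX (-0.33), FGF1 (-0.55), CLDN1 (-0.43) and BIRC3 (-0.77) lay within 2-fold there. The dyes ran the same way on both arrays, and the part of the dye in a shared sign was not tested.

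Kinase feedback and immediate early genes held DUSP4 (1.39) and DUSP1 (1.38), phosphatases that switch off MAP kinases, KLF2 (1.78), the serum response factor SRF (1.38), IER3 (1.04) and JUN (1.03) on the high side. EGR2 (-1.20) and NR4A3 (-1.49) were on the low side. Of the MAP kinase cascade itself, 1 of 39 was past 2-fold, MAP3K2 at -1.14 (2.56% lower, against 1.56% over all genes). In cyclic nucleotide signalling, the cGMP-dependent kinase PRKG1 was at 1.95, the anchor protein AKAP12 at 1.55 and the phosphodiesterase PDE1B at -1.46.

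YAP and TEAD targets with the Hippo genes had a median of 0.19 and 4 of 34 at least 2-fold higher (11.8%, against 3.31% over all genes). These were CCN2 (2.83), F3 (1.51), GADD45A (1.35) and NT5E (1.15), with CCN1 at 0.85 and ANKRD1 at 0.94. The Hippo component NF2, which is often lost in mesothelioma, was at -0.63, and the co-activator WWTR1 was at -0.45. Of 34 genes of BMP and TGF-beta signalling, 3 (8.82%, against 1.56% over all genes) were at least 2-fold lower and none higher by as much. The list median was -0.01 (0.30 with ribosomal centring), with 16 above 0 and PMEPA1 highest at 0.84. Past 2-fold were the inhibitory SMAD6 at -1.24 and the BMP-responsive repressors ID4 (-1.07) and ID3 (-1.01), with ID2 (-0.71) and ID1 (-0.59) below 0 as well. With ribosomal centring, which adds 0.31, these 3 genes no longer passed 2-fold.

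Transcription factors were little represented past 2-fold. GATA4, a factor of heart, gut and mesothelium, was the lowest at -2.10, while GATA6 was at 0.44 and GATA3 at 0.46. SOX6 was at 1.42 and SOX9 at 1.05. The vitamin D receptor VDR was at 1.65, the clock repressor NR1D2 at 1.35 and NR5A2 at 1.31. MEIS1 was at -1.01, DLX2 at -1.19 and HOXC4 at -1.09. Of the repressors linked to mesenchymal transition, ZEB1 was at 0.68, SNAI2 at 0.42 and TWIST1 at -0.76, all within 2-fold. Zinc finger genes, the largest family with 314 measured, had 2 members past 2-fold on the high side (0.637%) and 1 on the low side (0.318%). Both shares lay below those over all genes, 3.31% and 1.56%. Of 96 chromatin modifiers, TET1, which oxidises methylated cytosine, was past 2-fold at -1.25.

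Sterol synthesis and uptake was the list with the largest share at least 2-fold lower, 5 of 27 (18.5%), against 1.56% over all genes, and none was at least 2-fold higher. INSIG1 was at -2.40, the synthesis enzymes HMGCS1 at -1.21, MSMO1 at -1.08, IDI1 at -1.06 and LSS at -1.02. EBP (-0.92), CYP51A1 (-0.88) and FDFT1 (-0.87) were just short of 2-fold. The list median was -0.25 as deposited and 0.06 with ribosomal centring, under which INSIG1 alone of the 27 stayed at least 2-fold lower. SREBF2, the gene of the controlling factor, was at -0.33 and SQLE at -0.15, and the uptake and export genes NPC1L1 (0.50) and NPC1 (0.39) were the highest. Of fatty acid genes, which SREBP factors also drive, FASN was at -0.85, SCD at -0.83 and FADS2 at -0.68. LPIN1, a phosphatidate phosphatase, was at -1.92 and the monoglyceride lipase MGLL at 1.19.

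In the list of amino acid stress genes and tRNA synthetases, 5 of 57 were at least 2-fold lower (8.77%) and 3 higher by as much (5.26%). Over all genes these shares were 1.56% and 3.31%. With ribosomal centring the list had 1 lower and 4 higher, beside 46 lower and 751 higher of all 10347 genes. PHGDH, the first enzyme of serine synthesis, was at -1.50, CBS, of the path from methionine to cysteine, at -1.08, and the mitochondrial threonyl-tRNA synthetase TARS2 at -1.24. The stress-responsive TRIB1 (1.06) and SESN2 (1.02) were higher. Redox genes included GLRX, glutaredoxin, at -2.11, GPX7 at 1.30, and short of 2-fold FTL, ferritin light chain, at -0.99, catalase, CAT, at -0.96 and NFE2L2, the gene of NRF2, at -0.87. The NRF2 and glutathione list had a median of -0.14 over 56 genes (0.17 with ribosomal centring).

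Of 61 cytochrome P450 and conjugating enzymes, 3 (4.92%) were past 2-fold on each side. CYP3A4 (2.06) and CYP3A7 (1.87), near-identical liver enzymes, and CYP7B1 (2.06), an oxysterol hydroxylase, were higher, while CYP1B1 (-1.67), the acetyltransferase NAT2 (-1.50) and the histamine methyltransferase HNMT (-2.13) were lower. PFKFB4, a regulator of glycolysis, was at 2.09, but the list of glycolysis genes had a median of -0.13 (0.18 with ribosomal centring), with LDHB at -0.85. ALOX5AP, needed for leukotriene synthesis, was at 1.92. SAT1, which breaks down polyamines, was at 2.07. The nucleotide enzymes XDH (1.26) and CDA (1.10) were at least 2-fold higher.

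Respiratory chain and ATP synthase genes shared a small shift rather than large single values. Their median was -0.20, with 20 of 75 above 0 and none past 2-fold, from UQCR11 at 0.45 to NDUFC2 at -0.70. The median was 0.11 with ribosomal centring. Cytosolic ribosomal proteins had a median of -0.31 over 39 genes. RPLP0 (-1.36) and RPS2 (-1.05) were at least 2-fold lower, whereas RPS4Y1, at 1.66, was at least 2-fold higher. Mitochondrial ribosomal proteins had a median of -0.04 with none past 2-fold among 69 (0.27 with ribosomal centring). Ribosomal protein genes have many processed pseudogenes, to which probes can bind.

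Cell cycle genes are given by phase. Mitotic genes had a median of -0.17, with 19 of 62 above 0 (0.13 with ribosomal centring), from UBE2C at 0.68 to PTTG1, securin, at -1.09. DNA replication and G1/S genes had a median of 0.12, with 29 of 44 above 0 and none past 2-fold, from ORC6 at 0.87 to E2F2 at -0.32. Of 47 cyclins, CDKs and CDK inhibitors, 5 (10.6%, against 3.31% over all genes) were at least 2-fold higher. The 1 gene lower by as much (2.13%, against 1.56%) was the cyclin CCNA1 at -1.19. The list median was 0.01, with 24 of 47 above 0. Among the higher genes were the D-type cyclins CCND1 at 1.95 and CCND2 at 1.77 and their partner kinase CDK6 at 1.23. The inhibitor CDKN1A, p21, was also higher, at 1.28, and CDKN2C was at -0.95. Genes known as p53 targets had a median of 0.27, with 23 of 33 above 0. At least 2-fold higher were 4 (12.1%, against 3.31% over all genes), namely GDF15, GADD45A, CDKN1A and SESN2. None was lower by as much, and the lowest was CCNG1 at -0.84.

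Contractile and cytoskeletal genes held 14 of 199 at least 2-fold higher. In the actin and myosin list, 55 of 73 were above 0 and the median was 0.19. TAGLN, an actin-binding protein of smooth muscle, was at 1.89, TPM1, tropomyosin, at 1.39 over probes from 0.66 to 1.89, the myosin light chain MYL9 at 1.36, the actinin ACTN1 at 1.18 and vinculin, VCL, at 1.09. MYO1A, a microvillus myosin, was at -1.42, and the calponin CNN1, another smooth muscle protein, at -0.70. Of 29 keratins, 4 (13.8%, against 3.31% over all genes) were at least 2-fold higher, and the list median was 0.01. They were KRT24 (1.85), KRT34 (1.70), KRT17 (1.08) and KRT38 (1.01).

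Genes of RNA, protein and vesicle handling held 17 of 799 at least 2-fold lower (2.13%, against 1.56% over all genes) and 10 at least 2-fold higher (1.25%, against 3.31%). With ribosomal centring the counts of this group were 7 lower and 31 higher. Over all 10347 genes they were then 46 lower and 751 higher. EXOC4, of the exocyst that tethers vesicles, was at -1.98, and its partner EXOC8 at 1.49. The coat protein COPA was at -1.11 and SEC24A at -1.03. Substrate adaptors of ubiquitin ligases included ASB9 (-1.97), KLHL9 (-1.70), KCTD14 (-1.30) and FBXO3 (-1.20). PABPC1, the poly(A)-binding protein of translation, was at -1.55, and the splicing regulator RBM10 at -1.34. SYVN1, a ligase of misfolded endoplasmic reticulum proteins, was at -1.32. Histone genes ranged from the oocyte linker H1-8 at 1.51 to H2AC6 at -1.91, around a median of -0.12 (0.19 with ribosomal centring).

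**Figure D4:**
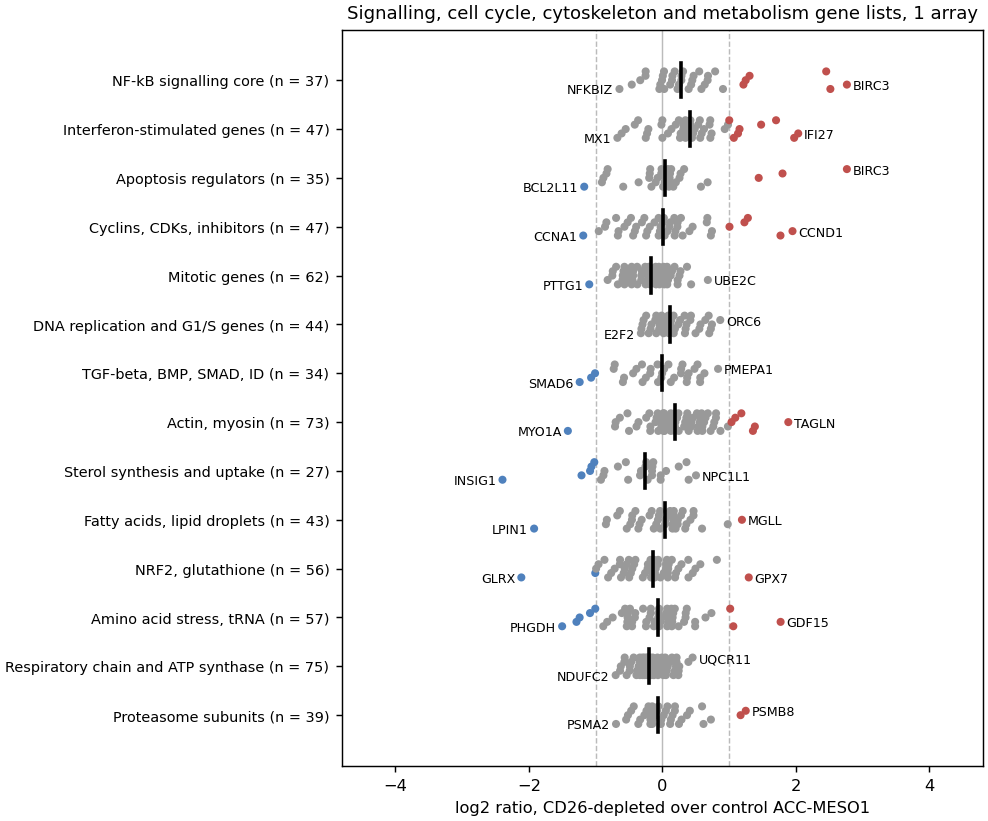
Log2 ratio (depleted over control) of each measured member of 14 signalling, cell cycle, cytoskeleton and metabolism lists, one point a gene, with the list median as a black bar and genes past 2-fold in red or blue. Interferon-stimulated genes (median 0.42) and NF-kB genes (0.29) sit to the right, sterol genes (-0.25) and the compact respiratory chain (-0.20) to the left, and replication genes (0.12) to the right of mitotic genes (-0.17).

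Among the highest genes in no list above, GLIPR1, a secreted cysteine-rich protein, was at 3.11 and the membrane protein TMEM40 at 2.93. BTG4, of an antiproliferative family known from oocytes, was at 2.56, the lens crystallin CRYGC at 2.47, the channel-like PKD1L3 at 2.44, the phospholipid enzyme PLAAT4 at 2.24, TUB at 2.13 and the secreted PI15 at 2.05. Among the lowest were LETM1, of mitochondrial ion exchange, at -1.88, the calcium-binding CIB2 at -1.82, DNAJC28 at -1.70, CABLES1 at -1.57 and SECTM1 at -1.56. BTG4 and CRYGC are known from single specialised tissues, and 39 of the 40 highest and all 40 lowest genes rested on 1 probe.

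The identity of the cells was read from marker genes, of which a ratio shows only a difference between the samples and not a level. Mesothelial markers had a median of 0.09 over 23 genes, with 17 above 0, from ITLN1 (1.38) and CDH3 (1.35) through mesothelin, MSLN (0.58), calretinin, CALB2 (0.10), and KRT8 (0.20) to KRT19 (-0.33) and WT1 (-0.37). Markers of epithelium (median -0.11, 17 genes), lymphocytes (0.08, 12), endothelium (-0.07, 9) and nerve and muscle (0.00, 17) had none past 2-fold. Fibroblast markers (-0.07, 13) had MFAP5 at 1.96 and LUM at -0.89, and myeloid markers (0.08, 14) had ELANE at -1.09. Medians below 0 here turned above 0 with ribosomal centring. Cancer-testis and germline genes had 4 of 59 at least 2-fold lower (6.78%, against 1.56% over all genes; 1 with ribosomal centring), SSX1 (-1.66), SSX3 (-1.21), MAGEA1 (-1.14) and MAGEA6 (-1.02), with MAGEE2 at 1.70. The SSX and MAGEA genes are families of close paralogs on the X chromosome.

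By chromosome, chromosome 6 had the largest share of genes at least 2-fold higher (35 of 655, 5.34%) and chromosome 9 the smallest (5 of 475, 1.05%). Chromosome medians ran from -0.04 for X to 0.06 for chromosome 6. Runs of 15 neighbouring genes were ranked by their median over 9903 windows, of which 23 exceeded 0.4. The highest, with a median of 0.54, ran from ITGA2 to ELOVL7 on chromosome 5. The next, at 0.52 from FOXJ2 to STYK1 on chromosome 12, held 4 genes at least 2-fold higher. A window on chromosome 6 from HLA-DRB5 to SLC39A7 had a median of 0.45 and covers TAP1, PSMB8 and PSMB9, and one on chromosome 3 from DNAJB11 to ATP13A4 had a median of 0.42 and held 5 such genes. The lowest, at -0.38, ran from ACOT13 to H3C4 through histone genes of chromosome 6. Overlapping windows share genes, and related genes such as histones lie side by side.

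Of the 342 genes at least 2-fold higher, 203 had a value on the array of transfected MSTO-211H cells. There, 25 of them were at least 2-fold higher, 5 at least 2-fold lower and 173 within 2-fold. On that array, 5.46% of all genes were past 2-fold, 4.09% on the high side and 1.37% on the low side. Of the 161 genes at least 2-fold lower after depletion, 116 had a value there, with 12 at least 2-fold higher, 5 at least 2-fold lower and 99 within 2-fold. The 12 include DPP4, WNT7B (1.14 on the transfection array) and IGFBP7 (1.99), and the 5 include INSIG1 (-1.33) and H2AC6 (-1.37). The arrays differ in cell line and in the way CD26 was changed.

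**Figure D5:**
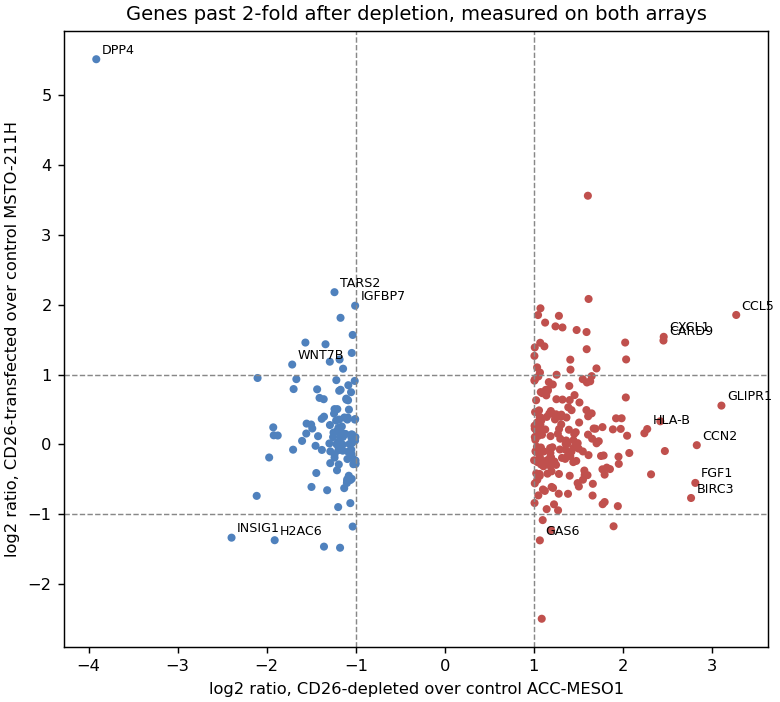
Log2 ratio of CD26-depleted over control ACC-MESO1 cells (x axis) against that of CD26-transfected over control MSTO-211H cells (y axis) for the genes past 2-fold after depletion that have a value on both arrays, red for higher (203 genes) and blue for lower (116), with dashed lines at 2-fold. Most points lie between the horizontal lines (173 red and 99 blue), and DPP4 is the point at the upper left.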

How the data were processed

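RNA of cultured ACC-MESO1 cells was amplified, coupled to Cy5 (control) or Cy3 (CD26-depleted) and hybridised to 1 two-colour array, per the labels' protocols. The authors deposited normalized log2 ratios of depleted over control cells, and their direction is given by the sample label. For background correction, normalization, scanner and the filter behind missing values, the methods were not given in the sources used here. The log2 ratios have a median of 0 over the array's probes.

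Of 24267 probes, 19622 carried a value on this array. In the platform annotation, 13395 probes had a single gene symbol, 0 had several and 10872 had none and were left unnamed. Symbols were updated through RefSeq GRCh38.p14: 10076 needed no update, 2285 matched a synonym and 113 matched neither clearly and kept their name. Averaging the probes of each gene left 10347 genes. The threshold for a gene called higher or lower was 1 on the log2 scale, which is 2-fold. The values nearest to it were 1.003 and 0.9997 on the high side, and -1.002 and -0.998 on the low side.

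With 1 array there was no test, and this limits the precision of all values. Lists are described by counts and medians beside all named genes. The members, the 140 lists, the motifs and the rule for named genes were chosen with earlier results of these data known. That rule took DPP4, the 40 highest and 40 lowest genes without placeholder symbols, list members past 2-fold and the extremes of each list. Genes named beyond it, such as list members just short of 2-fold, upstream factors and lineage markers, were chosen after their values were seen. Promoters were matched by symbol. The computations used Python 3.11.15, pandas 2.3.3, numpy 2.4.6 and matplotlib 3.10.9, and were tested on data with known answers. Alternatives were other centrings, other rules for several probes, restriction to genes on both arrays or to current symbols, and thresholds of 0.5 and 1.5.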

Additional observations from a re-analysis of the deposited data

Results flagged for a closer look

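Probes without a gene name in the platform annotation entered no comparison. Of 8621 such probes with a value, 363 were past 2-fold, 234 of them higher and 129 lower, from 4.02 to -2.09 on the log2 scale. That is 4.21%, against 5.08% of the 11001 named probes with a value. The highest unnamed probe lay above the highest named gene, MMP3 (3.75). There were no control arrays to set these probes against.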

How the results depend on the processing

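With the array centred on ribosomal protein genes, 751 genes passed 2-fold on the high side and 46 on the low side, in place of 342 and 161. Among genes also measured on the other array, 203 were at least 2-fold higher. A threshold of 0.5 gave 1323 higher and 1014 lower, and one of 1.5 gave 125 and 22. Of the 140 list medians, 56 changed sign with ribosomal centring, and, of the 448 genes taken by the naming rule, 61 of the 322 past 2-fold were no longer past it. At most 12 lists changed sign under any of the other alternatives, and none of those 322 changed sign under the alternatives that kept it. By choice of probe, among the 448, CXCL8 (3.11 or 0.09), DUSP18 (-1.52 or 0.23), PTPN6 (-1.22 or -0.04) and TPM1 (1.89 or 0.66) moved by more than the SD between probes, and PSMB10, which is not among them, has probes from -0.67 to 1.52. No paired analysis was possible because each comparison has 1 array. Signal over background is unknown, so dim genes could not be set aside.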
